A study of Mus musculus with 4 samples.

Results

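The tight junction claudins, occludin and the zonula occludens scaffold were followed here as 9 genes: Cldn5, Cldn18, Cldn3, Cldn4, Cldn7, Ocln, Tjp1, Marveld2 and Cgn. The genes were found by symbol among the 32285 genes of the count tables, and a wider list of 60 tight junction genes, which holds all 9, was used for comparison. Their transcripts were counted in endothelial subtypes and in the alveolar epithelium of mouse lungs.

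The lungs were those of male C57BL/6 mice. The paper describes a restricted diet under its model of aging, and the sample labels give that diet without naming a group. Young animals were 2 to 3 months old and aged animals were 22 months old. At each age, mice were either left without ventilation, as naive controls, or ventilated for 3 hours under ketamine, medetomidine and buprenorphine at a tidal volume of 20 mL/kg, 150 breaths per minute, a positive end-expiratory pressure of 0 cm H2O and an inspired oxygen fraction of 1.0. The paper set a maximum volume, so heavier mice received less for each kg, and its aged mice were in general heavier. Volume for each kg and age therefore cannot be told apart in the responses. The volume was set to injure the lung. The controls had none of these procedures, anesthesia included, so the effects of anesthesia, oxygen and stretch cannot be told apart in these libraries. Each of the 4 groups was 1 library of dissociated cells from 3 pooled mice. With 1 library a group, no difference was tested across animals and no p-value is given. The intervals are 95% intervals that cover counting error only, and a value is called higher or lower where the interval of its ratio leaves out 1.

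Tight junctions are belts of membrane strands that seal the space between neighboring cells and set what passes between them. Claudins and occludin form the strands, tricellulin (Marveld2) seals the points where cells meet in threes, and the scaffold proteins ZO-1 (Tjp1) and cingulin (Cgn) tie the strands to the actin cytoskeleton. In the lung, claudin-5 is the claudin of the endothelium, while claudin-18 with claudin-3, claudin-4 and claudin-7 line the alveolar side of the barrier between air and blood.

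The 4 libraries held 3400 to 4497 barcodes and 40655452 to 45218176 unique molecular identifiers (UMIs, 1 for each captured transcript molecule), and pairs of libraries shared 0 to 7 barcodes. Clusters were named "-like" from marker genes, and no member is among those markers. They gave 2359 general capillary-like cells, 685 aerocyte-like cells (the flat capillary cells of gas exchange), 80 arterial-like, 199 venous-like and 111 lymphatic-like endothelial cells, 410 alveolar type I-like (AT1-like) cells and 101 alveolar type II-like (AT2-like) cells. General capillary-like and aerocyte-like cells came from 433 to 713 and from 114 to 225 cells a library, AT1-like cells from 78 to 137 and AT2-like cells from 20 to 30. Ventilated and nonventilated capillary cells fell largely into different sub-clusters of the same class: nonventilated general capillary-like cells into those led by Ccdc85a, Samd12 and Glp1r and ventilated ones into that led by Akap12 and Cd93, and nonventilated aerocyte-like cells into those led by Tmeff2, Lmntd1 and Ednrb and ventilated ones into that led by Rgs6, Ccdc68 and Cxcl10. Levels are UMIs of the gene for each 1000000 UMIs of the class in the library (CPM), and where 4 values follow each other without more words they run from young mice, first without and then with ventilation, to aged mice in the same way. As a reference for free RNA, lymphoid-like cells (574 in all), which form no tight junctions, are given beside them.

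The promoters of 5 members are shown because the results turn on these genes. They are Cldn5, read in endothelium, Cldn18, read in alveolar epithelium from annotated starts that 3′ counts cannot tell apart, Cldn4, which appeared in ventilated airway cells, Ocln, lower in ventilated capillary cells, and Cgn, higher in ventilated AT1-like cells. Each window is the 250 bases before a RefSeq start on GRCm38.p6, read 5′ to 3′ on the strand of the gene. Capitals mark matches on either strand to TGANTCA (AP-1), TGTTTNC (forkhead), CNGGAAG (ETS), CAAGTG (NKX2), AACNNGTT (grainyhead), the GC box letters GGGCGG or, for the TATA box, the letters TATAAA, and no matches overlapped in these windows.
Cldn5, chr16:18776597-18776846, + strand: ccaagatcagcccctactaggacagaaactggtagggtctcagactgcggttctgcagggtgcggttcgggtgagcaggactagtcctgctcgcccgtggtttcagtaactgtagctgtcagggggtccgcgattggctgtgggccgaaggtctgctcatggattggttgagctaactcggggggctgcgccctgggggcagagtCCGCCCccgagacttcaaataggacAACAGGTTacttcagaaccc
Cldn18, first start, chr9:99717268-99717517, - strand: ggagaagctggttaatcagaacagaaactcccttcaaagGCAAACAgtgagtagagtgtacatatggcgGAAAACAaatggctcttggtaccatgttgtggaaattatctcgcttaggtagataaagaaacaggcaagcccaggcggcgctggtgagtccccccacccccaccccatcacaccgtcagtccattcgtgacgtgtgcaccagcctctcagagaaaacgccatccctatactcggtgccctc
Cldn18, downstream start, chr9:99710064-99710313, - strand: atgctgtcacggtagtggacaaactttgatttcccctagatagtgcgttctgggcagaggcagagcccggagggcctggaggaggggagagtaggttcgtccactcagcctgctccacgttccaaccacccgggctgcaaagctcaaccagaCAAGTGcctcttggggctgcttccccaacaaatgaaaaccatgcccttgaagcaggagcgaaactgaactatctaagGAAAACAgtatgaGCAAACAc
Cldn4, chr5:134946935-134947184, - strand: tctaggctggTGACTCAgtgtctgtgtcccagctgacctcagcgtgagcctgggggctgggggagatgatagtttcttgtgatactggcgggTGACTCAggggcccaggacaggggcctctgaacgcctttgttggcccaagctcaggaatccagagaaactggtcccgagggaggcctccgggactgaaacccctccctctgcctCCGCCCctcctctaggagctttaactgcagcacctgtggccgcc
Ocln, chr13:100552719-100552968, - strand: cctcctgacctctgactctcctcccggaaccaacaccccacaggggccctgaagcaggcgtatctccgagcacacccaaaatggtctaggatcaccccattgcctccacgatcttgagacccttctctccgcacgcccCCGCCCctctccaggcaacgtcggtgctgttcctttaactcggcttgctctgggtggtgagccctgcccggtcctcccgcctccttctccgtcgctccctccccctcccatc
Cgn, chr3:94786483-94786732, - strand: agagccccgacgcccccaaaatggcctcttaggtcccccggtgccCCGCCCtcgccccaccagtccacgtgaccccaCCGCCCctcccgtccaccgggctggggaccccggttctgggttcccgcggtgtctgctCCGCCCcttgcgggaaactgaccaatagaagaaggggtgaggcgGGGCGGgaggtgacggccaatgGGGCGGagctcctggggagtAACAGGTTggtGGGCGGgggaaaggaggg

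Cldn5 held a grainyhead match 20 bases and a GC box 45 bases before its start, and no ETS or forkhead match in these letters. Both Cldn18 windows held a pair of forkhead matches, at 211 and 181 bases before the first start and at 21 and 8 bases before the downstream start, and the downstream window also held an NKX2 match at 98 bases. Cldn4 held an AP-1 match at 240 and again at 158 bases and a GC box at 44 bases before its start. Ocln held a single GC box, at 112 bases, and the window of its second annotated start, chr13:100552499-100552748, also held 1, at 43 bases. Cgn held 6 GC boxes and a grainyhead match at 29 bases. Among the 32851 RefSeq windows of the same length, 6.75% held the AP-1 letters, 17.8% the forkhead letters, 26.6% the ETS letters, 11.6% the NKX2 letters, 3.64% the grainyhead letters, 32.7% the GC box and 12.4% the TATA box. The matches describe the letters and are not shown to be bound. On GRCm38, Cldn5 spans 16:18776847-18778262 (+), Cldn18 9:99689461-99717267 (-), Cldn3 5:134986214-134987472 (+), Cldn4 5:134945119-134946934 (-), Cldn7 11:69964779-69967885 (+), Ocln 13:100496507-100552718 (-), Tjp1 7:65296165-65527781 (-), Marveld2 13:100595957-100616971 (-) and Cgn 3:94760069-94786492 (-). Cldn3 and Cldn4 lie 39279 bases apart on chromosome 5, and Ocln and Marveld2 43238 bases apart on chromosome 13.

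**Figure D1:**
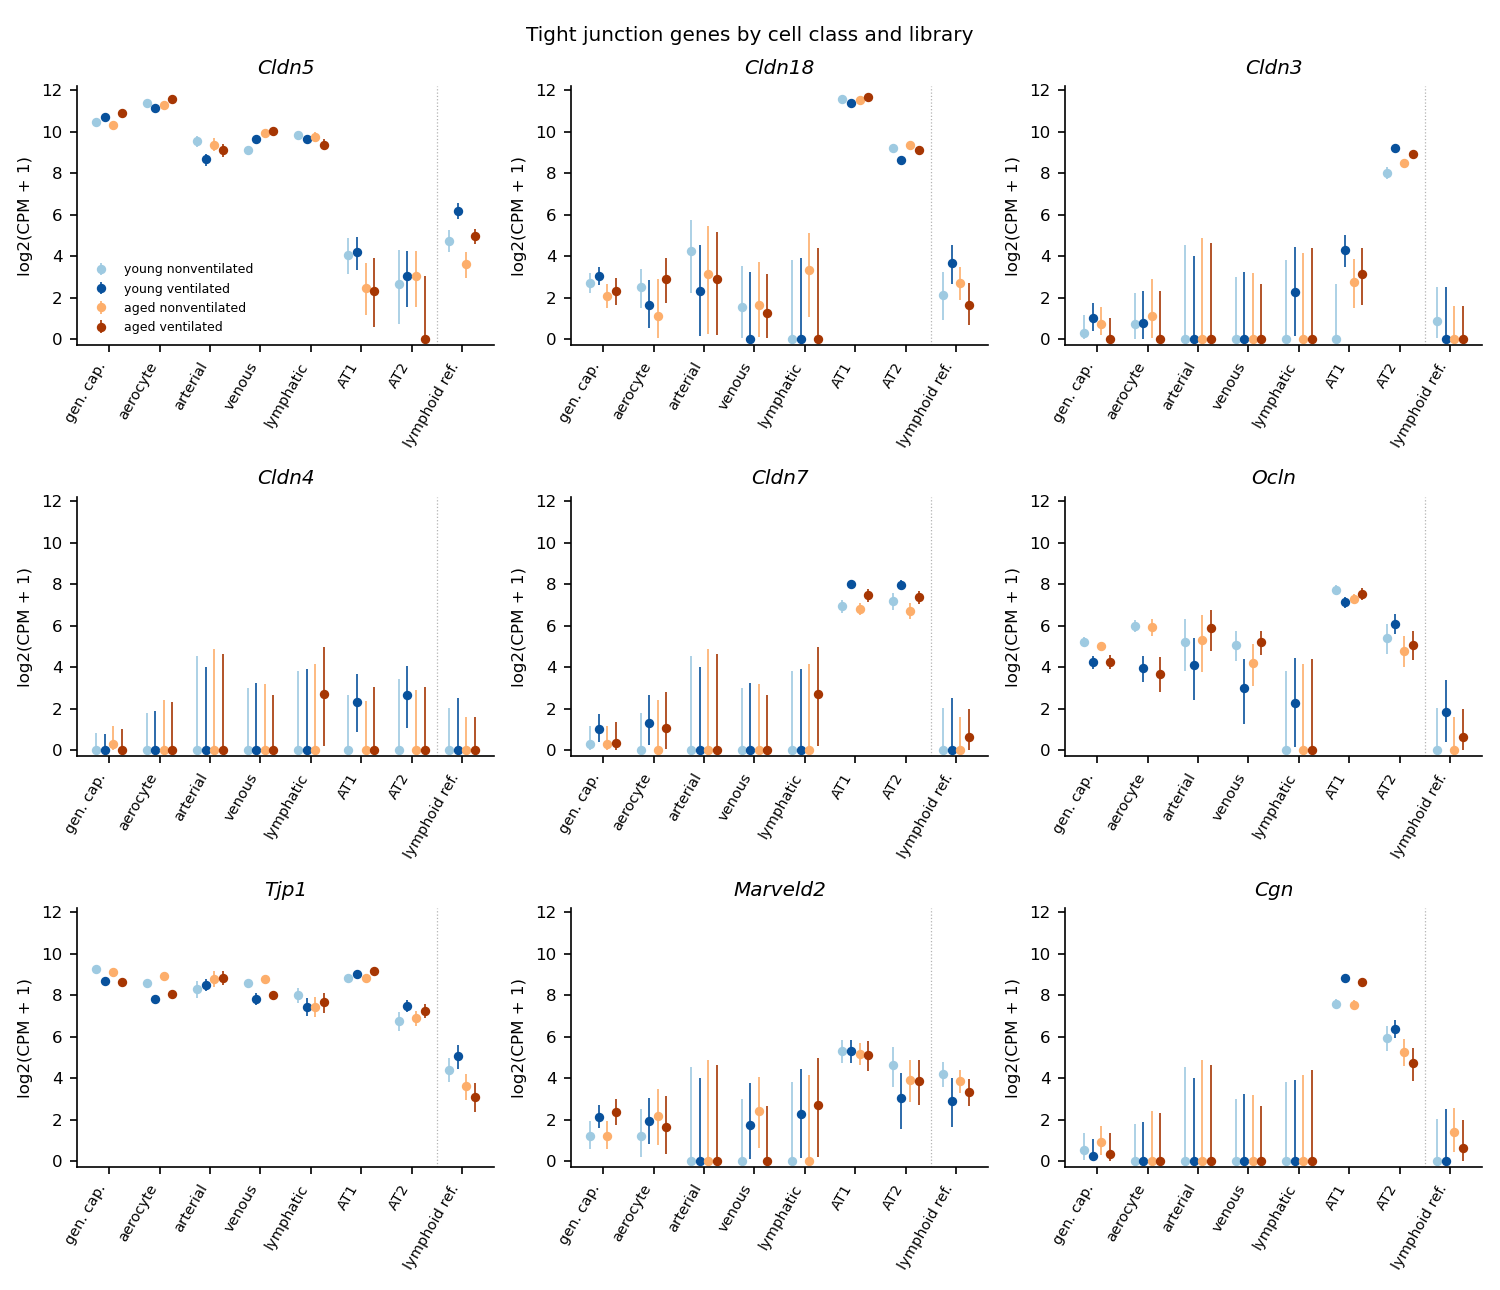
Level of each member as log2(CPM + 1) in the endothelial and alveolar classes and in the lymphoid reference (right of the dotted line), 1 point for each library with its 95% counting interval. Cldn5 stands high in all 5 endothelial classes, Cldn18 in AT1-like and AT2-like cells, Tjp1 in all 7 classes, and Cldn4 at or near 0 throughout.

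The members divided between endothelium and epithelium. Cldn5 ranged from 404 to 3079 CPM over the 5 endothelial classes against 0 to 17.2 CPM in AT1-like and AT2-like cells. The lymphoid reference held 11.2 to 71.6 CPM. In its ventilated libraries 33 of 56 Cldn5 UMIs in the young and 32 of 56 in the aged lay in 1 cell each, against 7 of 31 and 5 of 20 without ventilation. Tjp1 was present in every class, from 107 to 620 CPM, against 7.49 to 32.0 CPM in lymphoid-like cells. Cldn18, Cldn3, Cldn7 and Cgn were epithelial, and in endothelium Cldn18 stayed between 0 and 17.9 CPM, which overlaps the 2.14 to 11.5 CPM of lymphoid-like cells. The plot of levels by class and library shows this division, with Ocln the member between the compartments: 11.9 to 62.1 CPM in capillary classes and 138 to 208 CPM in AT1-like cells.

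Cldn5, the strand-forming claudin of vascular endothelium, was higher in ventilated than in nonventilated general capillary-like cells at both ages. Its level in these cells was 1433 CPM without and 1696 with ventilation in the young, and 1269 without and 1919 with it in the aged. Ventilated cells held 1.18-fold more in the young (1.15 to 1.22) and 1.51-fold more in the aged (1.46 to 1.57), so that the aged ratio was 1.28 times the young ratio (1.22 to 1.34). Neither ratio reached 2-fold. Before ventilation the aged library was 1.13-fold lower than the young (1.09 to 1.17), and after ventilation it was 1.13-fold higher (1.10 to 1.17). In the shallow general capillary-like sub-cluster, which held cells of all 4 libraries, the ratios were 1.26 in the young (1.04 to 1.54) and 1.65 in the aged (1.31 to 2.07). The sub-cluster led by Ccdc85a and Samd12 held 399 aged nonventilated and 27 aged ventilated cells. Its aged ratio was 1.04 (0.922 to 1.18), so the aged difference was not detectable there. Clusters group cells of like expression, so that ratio does not describe the other aged ventilated cells. With each cell of at least 1000 UMIs thinned to that number, and the 30, 61, 33 and 34 shallower cells left out, a Cldn5 UMI was found in 68.3%, 71.8%, 66.4% and 74.7% of general capillary-like cells in that order, against 0.559% to 2.22% of lymphoid-like cells.

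In aerocyte-like cells the direction of the Cldn5 difference was not the same at the 2 ages. Cldn5 stood at 2708 CPM in the young nonventilated and 2217 CPM in the young ventilated library, 1.22-fold lower (1.17 to 1.28). It stood at 2451 CPM in the aged nonventilated and 3079 CPM in the aged ventilated library, 1.26-fold higher (1.19 to 1.33). The aged ventilated library was thus the highest and the young ventilated library the lowest of the 4, and the aged over the young ratio of responses was 1.53 (1.43 to 1.65). In the shallow aerocyte-like sub-cluster, which held cells of all 4 libraries, the young ratio was 0.984 (0.846 to 1.14) and the aged ratio 1.27 (1.01 to 1.61), so the lower young value was not seen there. Aerocyte markers summed to 9694, 5319, 8692 and 6426 CPM in this class and general capillary markers to 718, 1047, 966 and 1145 CPM, with all 7 of the latter detected except Aplnr in the aged ventilated library, and the part of this shift in the Cldn5 values was not tested. Without aerocyte-like cells that held 3 or more UMIs of general capillary markers, the log2 ratio was -0.54 in the young and 0.50 in the aged. This alternative was chosen after seeing the data. A fixed number of UMIs bears more on deeper cells, and the medians were 7154, 5041, 6655 and 8200 UMIs a cell. The markers also hold Cd93, a leading gene of the ventilated general capillary-like sub-cluster, so these ratios do not show the part of the markers.

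**Figure D2:**
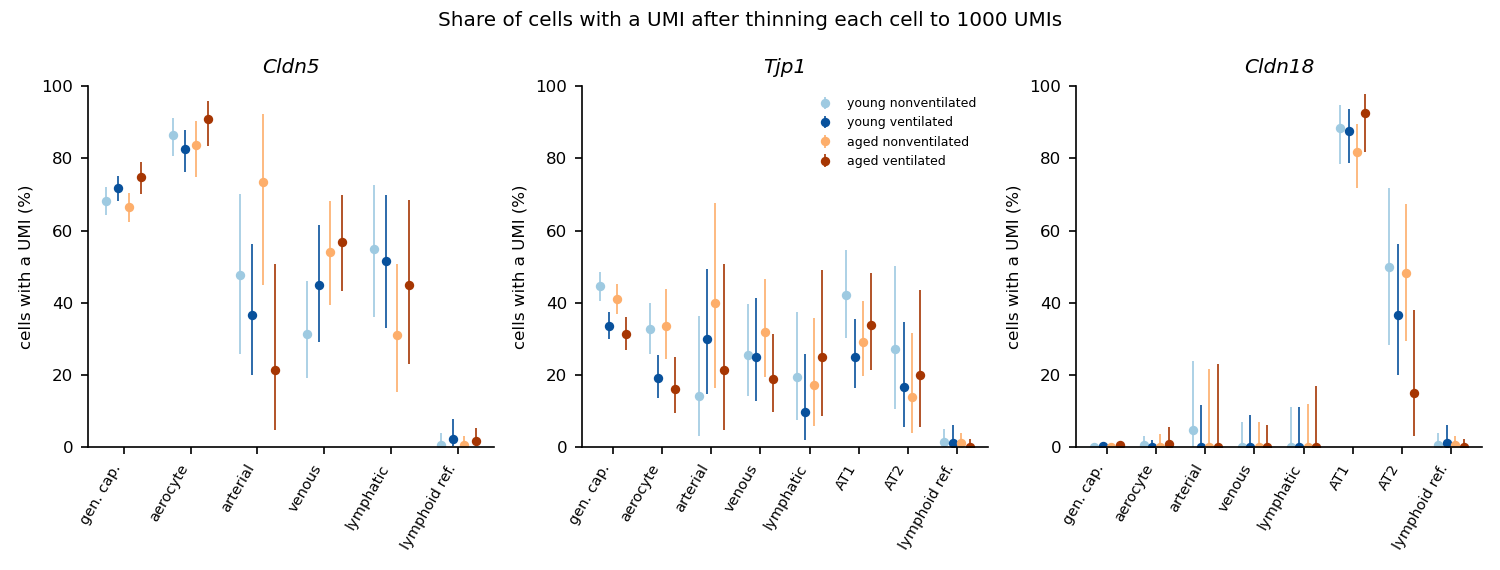
Percent of cells with at least 1 UMI of Cldn5, Tjp1 or Cldn18 after each cell was thinned to 1000 UMIs and shallower cells were left out, by class, 1 point for each library with its exact binomial 95% interval. Cldn5 was found in 82.6% to 90.9% of aerocyte-like cells, and in general capillary-like cells the Tjp1 share was 44.6% and 41.0% without ventilation and 33.6% and 31.3% with it.

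In the larger vessels Cldn5 followed no single pattern. Venous-like cells held 551, 805, 969 and 1051 CPM in that order, higher in the young ventilated library (1.46-fold, 1.25 to 1.71), while the aged ratio of 1.08 had an interval that held 1 (0.963 to 1.22). Arterial-like cells held 746, 404, 664 and 546 CPM, 1.85-fold lower in the young ventilated library (1.41 to 2.42), though 36 of its 100 Cldn5 UMIs lay in 1 cell and the class had 14 to 30 cells a library. Arterial markers in this class summed to 2524, 1423, 3149 and 2525 CPM, also lowest in the young ventilated library, and their part in the Cldn5 values was not tested. Lymphatic-like cells held 904, 810, 865 and 665 CPM, 1.30-fold lower in the aged ventilated than in the aged nonventilated library (1.03 to 1.65). The order of the classes by level was aerocyte-like first and general capillary-like next in every library, and the intervals of those neighbors did not overlap. The order of the venous-like, arterial-like and lymphatic-like cells changed from library to library.

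The genes whose levels ran most like Cldn5 over 51 points (classes with 20 or more cells in a library, 9500 genes compared) were Cdh5 with a Pearson correlation of 0.975, Shank3 with 0.966, Ecscr with 0.961, Egfl7 with 0.958 and Bcl6b with 0.955. Cdh5 encodes the endothelial adherens junction cadherin, and Cdh5 and Egfl7 were also among the markers used to find the endothelial compartment. The points share libraries and cell classes, so these correlations describe likeness across cell types only.

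Cldn18, the main claudin of the alveolar epithelium, was high in AT1-like cells and lower in AT2-like cells of each library. In AT1-like cells it stood at 3059 CPM without and 2668 with ventilation in the young, and 2906 without and 3271 with it in the aged. The young ventilated library was the lowest and the aged ventilated library the highest, 1.15-fold lower (1.08 to 1.22) and 1.13-fold higher (1.06 to 1.20) than their controls, and the ratio of the 2 responses was 1.29 (1.18 to 1.41). Thinning to 1000 UMIs, which also left out 22 of 91 nonventilated and 49 of 137 ventilated young cells, gave a young log2 ratio of 0.020. AT1 markers in the AT1-like class summed to 28165, 21638, 26594 and 25196 CPM, also lowest in the young ventilated library. AT2 markers there summed to 162, 2419, 309 and 806 CPM, and the part of both sums in the Cldn18 values was not tested. The AT1-like class had a median of 1326 to 3763 UMIs a cell. In its deep sub-cluster Cldn18 was 1.10-fold lower in the young (1.03 to 1.18) and 1.11-fold higher in the aged (1.04 to 1.19), and in its shallow sub-cluster it was 1.49-fold lower in the young (1.25 to 1.78), while the aged ratio of 1.19 held 1 (0.948 to 1.50). In AT2-like cells Cldn18 stood at 590, 392, 658 and 553 CPM, lower with ventilation in the young (1.50-fold, 1.24 to 1.82) and in the aged (1.19-fold, 1.02 to 1.39).

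The genes most like Cldn18 over the same 51 points were Aqp5, a water channel of AT1 cells and one of the naming markers, with a Pearson correlation of 0.958, Pof1b with 0.954, Prss8 with 0.952, Elfn1 with 0.9499 and Myh14 with 0.949.

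Cldn3 was the AT2-like member of the alveolar claudins and was higher after ventilation in the young. AT2-like cells held 260 CPM without and 586 with ventilation in the young, and 357 without and 478 with it in the aged, a ratio of 2.25 in the young (1.80 to 2.85) and of 1.34 in the aged (1.10 to 1.62). The young difference passed 2-fold, and the aged ratio was 0.593 times the young one. With a limit of 5% mitochondrial UMIs the aged log2 ratio was -0.048. That limit lies below the median mitochondrial share of AT2-like cells in each library (7.70%, 6.71%, 7.31% and 7.41%), so this value rests on few cells. In AT1-like cells Cldn3 gave 0, 14, 5 and 4 UMIs in all, where the count of 0 allows up to 4.27 CPM.

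Cldn7, a broadly epithelial claudin, was higher in ventilated cells of both alveolar classes. AT1-like cells held 121, 256, 109 and 175 CPM in that order, 2.11-fold higher with ventilation in the young (1.63 to 2.76) and 1.60-fold in the aged (1.19 to 2.16). AT2-like cells held 143, 248, 105 and 164 CPM, with ratios of 1.74 (1.26 to 2.42) and 1.57 (1.11 to 2.22). The 2 ventilated libraries were the highest in each class.

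Cldn4, a claudin known from injured alveolar epithelium, was not detectable above counting noise in either alveolar class or in the capillaries. AT1-like cells gave 3 UMIs and AT2-like cells gave 3 UMIs, all from the young ventilated library, and the AT2-like UMIs came from 1 cell. General capillary-like cells gave 1 UMI in all and aerocyte-like cells 0, which allows up to 1.98 to 3.48 CPM a library.

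Cldn4 was measured in the airway epithelium instead. Ciliated-like cells (121 in all) held 6.61 CPM without and 253 with ventilation in the young, and 10.0 without and 132 with it in the aged, 38.3-fold higher in the young (19.2 to 89.4) and 13.1-fold in the aged (7.78 to 23.9). Club-like cells (40 in all, 8 to 13 a library) held 16.3, 297, 17 and 212 CPM, with ratios of 18.2 (7.64 to 56.7) and 12.5 (5.91 to 30.5). Of the club-like UMIs, 68 of 170 in the young ventilated and 29 of 53 in the aged ventilated library lay in 1 cell each. The bar chart of Cldn4 shows both ventilated libraries above both nonventilated ones in each airway class. Ventilated ciliated-like cells formed 1 sub-cluster led by Areg, Krt8 and Sfn, and nonventilated ones another led by Ppargc1a, Ccdc153 and Rp1. Neither held a cell of the other condition. The leading genes of the nonventilated sub-cluster also held the club markers Cyp2f2 and Scgb1a1, whose part in the Cldn4 values was not tested. Ciliated markers summed to 3471, 1936, 5379 and 2897 CPM in ciliated-like cells, and club markers to 461645, 338490, 493876 and 233714 CPM in club-like cells. Both sums were lower in the ventilated library at each age, and their part in the Cldn4 values was not tested.

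**Figure D3:**
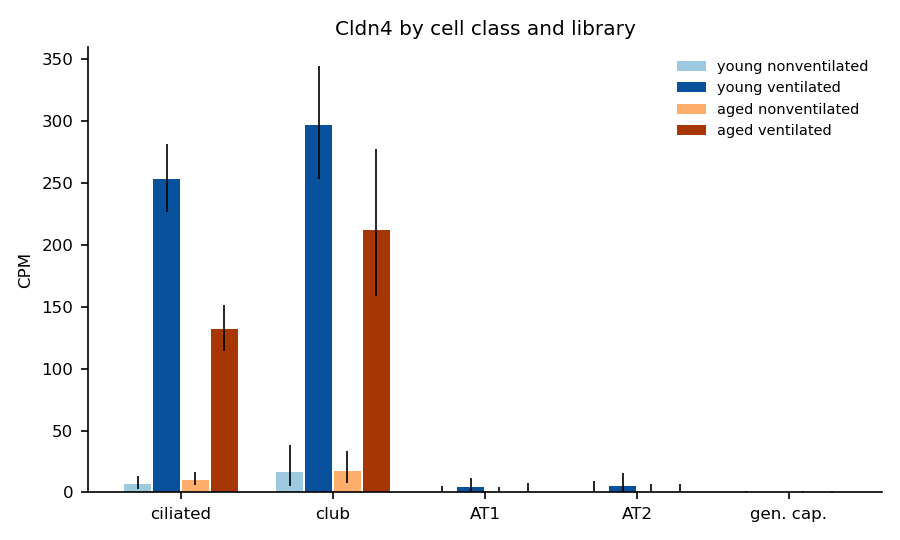
Cldn4 in CPM (linear axis from 0) in ciliated-like, club-like, AT1-like, AT2-like and general capillary-like cells, 1 bar for each library with its 95% counting interval. Ciliated-like cells stand at 253 and 132 CPM in the ventilated libraries against 6.61 and 10.0 CPM in the nonventilated ones, and the other 3 classes shown beside the airway stay at or below 5.32 CPM.

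Ocln encodes occludin, the MARVEL-domain protein of the strands, and it was lower in ventilated capillary cells at both ages. Aerocyte-like cells held 62.1 CPM without and 14.4 with ventilation in the young, and 59.1 without and 11.9 with it in the aged. The 2 ventilated libraries stood well below the 2 others, 4.33-fold lower in the young (2.65 to 7.40) and 4.98-fold lower in the aged (2.57 to 10.6), on 94, 20, 51 and 11 UMIs. A UMI was found in 28.2%, 6.67%, 24.6% and 8.77% of these cells at full depth, and in 0% of lymphoid-like cells of both nonventilated libraries and 2.20% and 0.610% of the ventilated ones, where the median depths were 5041 to 8200 UMIs in aerocyte-like and 6910 to 9804 UMIs in lymphoid-like cells. With cells thinned to 1000 UMIs and the 36, 47, 28 and 15 shallower ones left out, these shares were 4.89%, 3.37%, 4.08% and 0%, the last of which allows up to 3.66%, too few to order the libraries.

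General capillary-like cells held 36.1, 17.7, 31.0 and 18.2 CPM of Ocln, 2.04-fold lower in the young (1.57 to 2.67) and 1.70-fold lower in the aged (1.26 to 2.32). Thinning to 1000 UMIs gave an aged log2 ratio of 0.44. A UMI was then left in 9 of 542 aged nonventilated and 9 of 399 aged ventilated cells, too few to order these libraries. Between ages, no difference of Ocln was detectable in either capillary class at this depth, since every interval held 1. In AT1-like cells Ocln stood at 208, 138, 154 and 183 CPM, 1.51-fold lower in the young ventilated library (1.16 to 1.96), while the aged ratio of 1.19 held 1 (0.905 to 1.56). The aged over the young ratio of responses was 1.80 (1.25 to 2.59). In AT2-like cells it stood at 41.6, 67.4, 26.7 and 32.9 CPM, and the aged ventilated library was 2.05-fold below the young ventilated one (1.13 to 3.88). With a limit of 5% mitochondrial UMIs, which leaves few AT2-like cells, the log2 ratio was 0.027. Venous-like cells held 32.3, 6.84, 17.3 and 35.4 CPM on 3 to 25 UMIs.

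Marveld2, which encodes tricellulin, was sparse and was not limited to the epithelium. AT1-like cells held 38.5, 38.5, 35.4 and 33.5 CPM on 17 to 31 UMIs, with ratios of 1.00 (0.571 to 1.76) in the young and 0.948 (0.492 to 1.77) in the aged. These levels differed by less than counting error, and the intervals leave room for ratios from 0.492 to 1.77. Alveolar macrophage-like cells held 13.5 to 41.9 CPM, a range that spans the AT1-like values, and AT2-like cells, at 7.10 to 23.4 CPM, overlapped the lymphoid reference. In general capillary-like cells Marveld2 gave 6, 17, 6 and 15 UMIs, a ratio of 3.23 in the aged (1.18 to 10.2). Its levels of 1.29 to 4.20 CPM lay below the 6.39 to 17.5 CPM of lymphoid-like cells. Other mesenchymal cells held 0.808 to 1.71 CPM and other immune cells 1.59 to 4.55 CPM, so lymphoid-like cells set no floor for this gene. These few UMIs are not read as a response, and whether they are free RNA was not tested.

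Tjp1, the ZO-1 scaffold under the strands, was lower in ventilated capillary and venous cells at both ages. General capillary-like cells held 620 CPM without and 406 with ventilation in the young, and 549 without and 391 with it in the aged, 1.53-fold lower in the young (1.44 to 1.62) and 1.40-fold lower in the aged (1.31 to 1.50). Aerocyte-like cells held 385, 224, 480 and 267 CPM, 1.72-fold (1.50 to 1.98) and 1.79-fold lower (1.53 to 2.11). Venous-like cells held 388, 223, 432 and 255 CPM, 1.73-fold (1.36 to 2.23) and 1.69-fold lower (1.38 to 2.08). In these 3 classes both ventilated libraries lay below both nonventilated ones, and the aged over the young ratio of responses had intervals that held 1. In arterial-like cells the values were 310, 360, 440 and 457 CPM and both ratios held 1. Lymphatic-like cells held 173 to 254 CPM, and the aged over the young ratio of responses was 1.70, whose interval held 1 (0.949 to 3.05). In the shallow general capillary-like sub-cluster, which held cells of all 4 libraries, Tjp1 was 2.08-fold lower in the young (1.29 to 3.43) and 2.69-fold lower in the aged (1.63 to 4.54). In the sub-cluster led by Ccdc85a and Samd12 the aged ratio was 1.09 (0.911 to 1.31), with 27 aged ventilated cells. Clusters group cells of like expression, so this ratio does not describe the other aged ventilated cells.

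In alveolar epithelium the Tjp1 ratios lay above 1. AT1-like cells held 446, 519, 449 and 564 CPM, with ratios of 1.16 in the young, whose interval held 1 (1.00 to 1.35), and of 1.25 in the aged (1.07 to 1.47). The aged log2 ratio was -0.19 with cells thinned to 1000 UMIs and -0.12 with cells weighted equally. Of the thinned aged cells, 29.3% held a UMI without ventilation (19.7 to 40.4) and 34.0% with it (21.5 to 48.3). These intervals overlapped, so the thinned values do not settle a direction. AT2-like cells held 107, 176, 117 and 149 CPM, 1.65-fold higher in the young (1.13 to 2.43). Thinning gave a young log2 ratio of -0.67, with a UMI left in 6 of 22 nonventilated and 5 of 30 ventilated cells. AT1 markers in the AT2-like class summed to 1053, 2334, 1211 and 1338 CPM, highest in the young ventilated library. Their part in the Tjp1, Ocln and Cgn values of AT2-like cells was not tested.

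Cgn, which encodes cingulin, was past 2-fold at both ages in AT1-like cells. It stood at 189 CPM without and 455 with ventilation in the young, and 182 without and 398 with it in the aged, with ratios of 2.40 (1.96 to 2.96) and 2.18 (1.76 to 2.70). Both ventilated libraries lay more than 2-fold above both nonventilated ones, and in the deep AT1-like sub-cluster the ratios were 2.46 (1.99 to 3.05) and 2.33 (1.87 to 2.92). In the shallow one they were 1.82 (0.778 to 4.61) and 1.06 (0.404 to 2.75), and both intervals held 1. AT2 markers in the AT1-like class summed to 162, 2419, 309 and 806 CPM, with all 8 found in both ventilated libraries, Lamp3 and Slc34a2 at 0 in the young nonventilated and Lamp3 at 0 in the aged nonventilated library. AT2-like cells themselves held 59.8, 81.6, 37.3 and 25.1 CPM of Cgn, below the AT1-like level in every library. The aged ventilated AT2-like value was 3.25-fold below the young ventilated one (1.72 to 6.55), on 13 and 46 UMIs. Thinning gave a log2 ratio of 0.58, with a UMI left in 1 of 20 aged and 1 of 30 young ventilated cells, too few to order them. No Cgn UMI was found in aerocyte-like, arterial-like, venous-like or lymphatic-like cells, and general capillary-like cells gave 8.

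**Figure D4:**
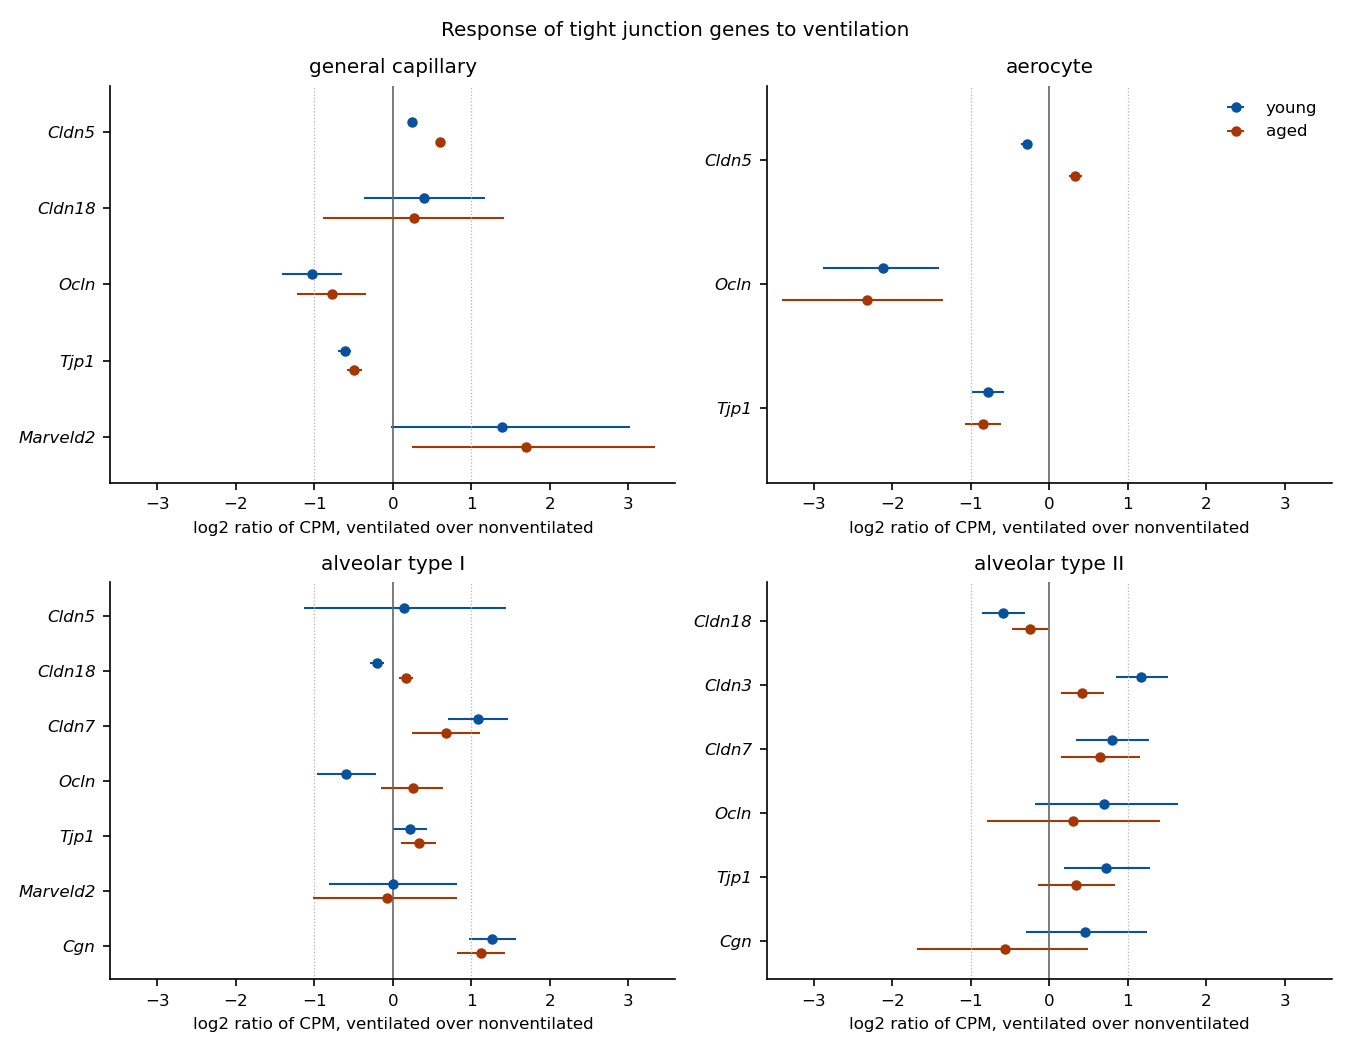
log2 ratio of CPM, ventilated over nonventilated, for members with at least 20 UMIs in the pair of libraries, in 4 classes, with 95% counting intervals, young in blue and aged in brown, and dotted lines at 2-fold. Ocln and Tjp1 lie left of 0 at both ages in both capillary classes, Cgn lies beyond 2-fold at both ages in AT1-like cells, and Cldn5 in aerocyte-like cells and Cldn18 in AT1-like cells lie on opposite sides of 0 at the 2 ages.

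Read against all genes, the members were not set apart by their counts. A gene was called where it differed by at least 2-fold with an interval that left out 1, among genes with 20 or more UMIs over the pair of libraries. In the response of young libraries 5 of 21 member values in the 4 main classes were called (3 higher, 2 lower), where 28.5% of all genes were called in general capillary-like, 30.6% in aerocyte-like, 16.5% in AT1-like and 20.9% in AT2-like cells. In the response of aged libraries 3 of 20 were called (2 higher, 1 lower), against 18.1%, 17.8%, 11.0% and 11.9% in the same order of classes. The 2 higher were Cgn in AT1-like cells and Marveld2, on few UMIs, in general capillary-like cells. Between nonventilated ages 0 of 19 were called, against 3.41%, 3.30%, 3.95% and 7.30%, and between ventilated ages 2 of 20, both lower in aged AT2-like cells, against 6.37%, 8.07%, 7.28% and 10.6%.

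Beside the median of all genes, Cldn5 in general capillary-like cells and Cgn in AT1-like cells lay on the other side of 0, while Ocln and Tjp1 in capillary cells lay on the same side and further out. The median log2 ratio of all genes tested in general capillary-like cells was -0.31 in the young and -0.16 in the aged response, against -1.03 and -0.77 for Ocln, -0.61 and -0.49 for Tjp1 and 0.24 and 0.60 for Cldn5. Scaling the general capillary-like libraries by the median of ratios instead of by total UMIs moved young ratios up by 0.15 on the log2 scale and turned no member there. In aerocyte-like cells the medians of all genes were -0.32 and -0.16, against -2.11 and -2.32 for Ocln. In AT1-like cells they were -0.07 and -0.03, against 1.26 and 1.13 for Cgn.

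The rest of the tight junction list placed these genes among their partners. In general capillary-like cells 26 of the 60 genes could be counted in the young response, 1 called higher and 2 lower, and 26 in the aged response, 1 higher and 2 lower, against 28.5% and 18.1% of all genes. Among claudins that are not members, Cldn12 was called in capillary cells, 2.43-fold lower in aged general capillary-like cells (1.89 to 3.14) and 2.75-fold lower in aged aerocyte-like cells (1.22 to 6.75), and in young AT1-like cells it was 2.08-fold higher (1.05 to 4.35). Amot, an angiomotin, was 4.91-fold lower in aged general capillary-like cells (2.41 to 11.3). The gene called higher in the aged response of this class was Marveld2, on few UMIs.

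Of 5 genes known to control Cldn5 transcription, 1 passed 2-fold in young general capillary-like cells (Sox18) and 2 in young aerocyte-like cells (Sox18 and Erg). Among all genes 28.5% and 30.6% did so in these classes, so the 5 genes were not set apart by their counts. Sox18, an endothelial transcription factor, stood at 85 CPM without and 24.9 with ventilation in the young, and 93.6 without and 66.4 with it in the aged in general capillary-like cells. It was lowest in the young ventilated library, 3.42-fold lower than its control (2.79 to 4.21), and the aged over the young ratio of responses was 2.43 (1.88 to 3.13). In aerocyte-like cells it stood at 104, 43.1, 117 and 110 CPM, 2.42-fold lower in the young (1.79 to 3.32), and the ratio of responses was 2.28 (1.52 to 3.41). Sox18 was 2.67-fold and 2.55-fold higher in the aged than in the young ventilated library in the 2 classes. Erg, an ETS factor, was 2.55-fold lower in young ventilated aerocyte-like cells (2.05 to 3.20). Foxo1, a repressor of Cldn5, did not pass 2-fold in either capillary class, with ratios of 1.69 and 1.55 in general capillary-like cells. Cdh5 and Ctnnb1 did not pass 2-fold, with ratios of 0.977 to 1.55 over both capillary classes and both ages. In general capillary-like cells the intervals of 2 of the 5 genes lay above 1 and of 2 below it in the young response. Among all genes 2030 of 11228 lay above and 5029 below. In the aged response 3 lay above and 2 below, against 1926 and 3617 of 11095. In aerocyte-like cells 1 lay above and 2 below in the young, against 1499 and 3214 of 8852. In the aged 2 lay above and 1 below, against 1062 and 1747 of 7798. Such intervals were thus common among all genes, and these counts are not read as a result about the 5 genes.

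In aerocyte-like cells 23 of the 60 genes were counted at each age, with 0 higher and 5 lower in the young and 0 higher and 2 lower in the aged, against 30.6% and 17.8% of all genes. The 5 were Ocln, Sox18, Erg, Mpdz (2.06-fold, 1.47 to 2.92), a multi-PDZ scaffold, and Amotl2 (2.14-fold, 1.54 to 3.01), and the 2 were Ocln and Cldn12. Cgnl1, which encodes paracingulin, was 2.33-fold lower in the aged than in the young ventilated library (1.04 to 5.92), and Amot was 2.52-fold lower in that comparison in general capillary-like cells (1.18 to 6.01).

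AT1-like cells had 31 genes counted in the young response, 3 higher and 6 lower, and 29 in the aged response, 2 higher and 2 lower, against 16.5% and 11.0% of all genes. Magi1, a junction scaffold, stood at 2411, 943, 2250 and 1163 CPM, 2.56-fold lower in the young (2.34 to 2.79) and 1.93-fold in the aged (1.76 to 2.12). Arhgef2, the exchange factor GEF-H1 that cingulin binds, stood at 309, 125, 308 and 120 CPM, 2.48-fold (1.94 to 3.19) and 2.56-fold lower (1.93 to 3.44), and Arhgef11 was 2.76-fold (1.92 to 4.04) and 2.75-fold lower (1.76 to 4.46). Cgn was thus higher and both exchange factors lower in ventilated AT1-like cells of both ages. Prkcz, a polarity kinase, Ildr1, a protein of tricellular contacts, and Foxo1 were also lower in the young (2.06-fold, 2.25-fold and 2.82-fold), and Amotl1 was 4.32-fold higher in the aged on 6 and 15 UMIs.

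In AT2-like cells 28 genes were counted at each age, with 2 higher and 2 lower in the young and 1 higher and 0 lower in the aged, against 20.9% and 11.9% of all genes. Besides Cldn3, Mpp5, a polarity scaffold, was 2.22-fold higher in the young (1.39 to 3.67), Arhgef11 and Foxo1 were 2.24-fold and 2.23-fold lower in the young, and Ybx3, the ZO-1-associated Y-box factor, was 2.56-fold higher in the aged (1.42 to 4.81). Prkci, a polarity kinase, was lower in aged than in young AT2-like cells both without ventilation (2.72-fold, 1.77 to 4.22) and with it (2.68-fold, 1.86 to 3.95). Between nonventilated ages Mpp5 was 2.42-fold higher and Arhgef11 2.23-fold lower in aged AT2-like cells, and in AT1-like cells Amotl1 was 3.54-fold and Foxo1 2.62-fold lower. Ildr1 was 2.57-fold higher in aged than in young ventilated AT1-like cells.

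**Figure D5:**
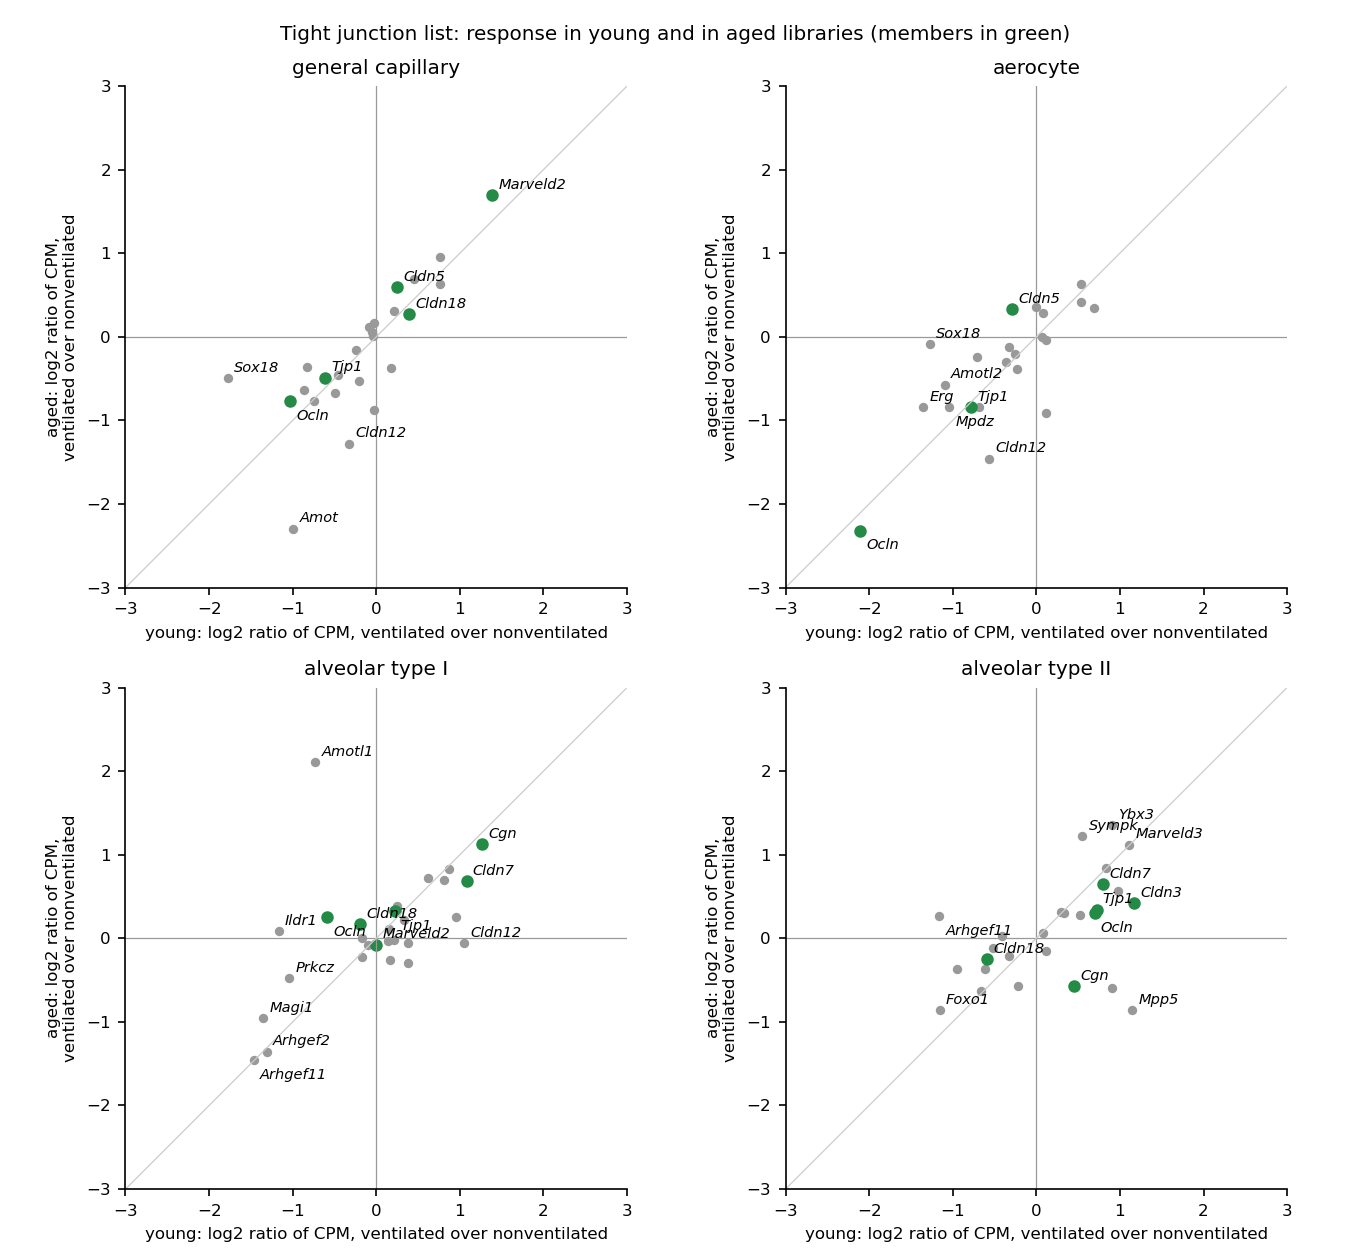
log2 ratio of CPM, ventilated over nonventilated, in young (x axis) and aged (y axis) libraries for tight junction list genes with at least 20 UMIs in both pairs, in 4 classes, with members in green, other list genes in grey and the diagonal where both ages are equal. Names are given for members and for plotted genes past 2-fold at either age. Ocln lies at -2.11 and -2.32 in aerocyte-like cells, Cgn at 1.26 and 1.13 in AT1-like cells, and Sox18 in both capillary classes lies above the diagonal.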

How the data were processed

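Whole left lung lobes were dissociated, and the 4 libraries were made with the 10x 3′ kit and mapped by the authors with Cell Ranger 7.0.0 to mm10, per the submitters' processing notes. The authors deposited raw UMI counts for 32285 genes in 1 matrix a library, and no annotation of cells was used. Values in CPM, log2 ratios, fold ratios and percent were computed here from these deposited counts. Seurat 5.3.0 (R 4.3.3) clustered cells with at least 200 genes and at most 10% mitochondrial UMIs, with the tight junction list left out of the 2000 variable genes. Endothelial classes used the study's upper limits (5000 genes and the 93rd percentile of UMIs), which left 2171 to 2976 cells a library, and epithelial classes used none. No doublet caller was run beyond these limits, and a mixed endothelial and mesenchymal cluster (229 cells) and sub-clusters with markers of another compartment (66, 61 and 61 cells) were left unnamed and out of the classes. Compartments were sub-clustered with 20 principal components at resolution 0.5. UMIs were summed per class and library (Python 3.11.15, scipy 1.17.1), with exact Poisson intervals for levels, exact conditional binomial intervals for ratios and exact Clopper-Pearson intervals for shares, all at 95%. UMIs mark molecules, so these intervals cover counting error and not the spread between animals. A count of 0 was given the limit that 3 counts allow.

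All 9 members were counted in every class, and not every such value is given in the text. Also named were list genes of at least 20 UMIs that passed 2-fold with an interval leaving out 1 in the 4 main classes. The 5 genes most like Cldn5 and Cldn18, among genes of at least 50 CPM in some class, were named too. The members and lists were chosen with earlier results of these data known. Positions came from GENCODE and promoter windows from RefSeq, both on GRCm38, and all 9 gene identifiers matched. Ratio intervals were checked on simulated Poisson counts only. These hold no clumping of UMIs in single cells, so the check does not cover it. Of the list genes named by this rule, 1 is not reported here and not plotted, though the counts include it.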

Additional observations from a re-analysis of the deposited data

Results flagged for a closer look

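The response of Cldn5 to ventilation in aerocyte-like cells and that of Cldn18 in AT1-like cells ran in opposite directions at the 2 ages, each with an interval that left out 1. The aged ratio over the young ratio was 1.53 for Cldn5 and 1.29 for Cldn18. With 1 library a group, these differences between ages were not tested.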

How the results depend on the processing

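No paired analysis was possible because each group was 1 library. Values are log2 ratios. For Cldn5 in general capillary-like cells the young response of 0.24 became 0.18 with the upper limits of the classes swapped and with a 5% mitochondrial limit, 0.40 with median-of-ratios scaling and 0.17 as a mean over cells, and the aged response of 0.60 became 0.51 with cells thinned to 1000 UMIs and 0.65 with median-of-ratios scaling. The difference of these responses, 0.35, became 0.46 (swapped limits), 0.43 (5% limit), 0.23 (thinned), 0.26 (median of ratios) and 0.42 (mean over cells). For Cldn5 in aerocyte-like cells the young response of -0.29 became -0.12 when thinned, and without cells holding general capillary markers, an alternative chosen after seeing the data, the young, aged and difference values of -0.29, 0.33 and 0.62 became -0.54, 0.50 and 1.03. Thinning gave a difference of 0.43. No Cldn5 direction turned in these alternatives. The young count of 5 member values past 2-fold became 11 at 1.5-fold and 2 when thinned, the aged count of 3 became 8 at 1.5-fold, the nonventilated age count of 0 became 1 with no minimum of UMIs, with the 5% limit or when thinned, and the ventilated age count of 2 became 1 with swapped limits and 0 when thinned. The shares of all genes given above hold for the main setting only. The changed counts have no such share beside them and are not read as a result about the members. Of 751 further values of 76 results, 665 stayed within the counting interval. Another 73 moved out of it and either kept their direction or belonged to results not called. The other 13 were called values that changed sign. When thinned these were Ocln in aged general capillary-like cells (0.44), Tjp1 in aerocyte-like cells between ages (-0.019 nonventilated, -0.26 ventilated), Cldn18 in young AT1-like cells (0.020), Cldn7 in AT1-like cells between ventilated ages (0.15), Tjp1 in aged AT1-like (-0.19) and young AT2-like cells (-0.67), and Cldn18 (-0.68) and Cgn (0.58) in AT2-like cells between ventilated ages. As a mean over cells Tjp1 in aged AT1-like cells was -0.12, and with the 5% limit AT2-like cells gave -0.043 for Cldn18 and 0.027 for Ocln between ventilated ages and -0.048 for Cldn3 in the aged. Some thinned values rest on few cells with a UMI, as 9 of 542 and 9 of 399 for Ocln or 1 of 30 and 1 of 20 for Cgn. The 5% limit lies below the median mitochondrial share of AT2-like cells in every library, so it leaves few of them. The cause of these changes was not tested. Depth limits Marveld2, Cldn4 and Ocln most in endothelium, and 20 to 30 AT2-like cells a library limit all AT2-like values.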

Other observations

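Other members also differed in ciliated-like cells, outside the alveolus. Ocln stood there at 89.2 CPM without and 293 with ventilation in the young, and 191 without and 169 with it in the aged, 3.29-fold higher with ventilation in the young (2.65 to 4.10), while the aged ratio of 0.882 held 1 (0.742 to 1.05). Tjp1 stood at 86.7, 249, 116 and 189 CPM in the same order, 2.87-fold (2.30 to 3.61) and 1.62-fold higher (1.34 to 1.97). Ocln and Tjp1 were thus higher in young ventilated ciliated-like cells and lower in young ventilated capillary cells. Cldn3, at 487 to 715 CPM, and Cldn7, at 355 to 637 CPM, were present in all 4 ciliated-like samples. Cldn18 was also found there, at 80.1, 153, 147 and 166 CPM, in 52.9%, 45.5%, 50% and 42.9% of the cells. The cell with the most Cldn18 UMIs held 34 of 97, 31 of 206, 62 of 219 and 48 of 253. Doublets were not tested for. The class held 17 to 36 cells a library, with medians of 53220, 27090, 30820.5 and 32273 UMIs a cell. Its own markers summed to 3471, 1936, 5379 and 2897 CPM. The part of depth and of these markers in the values was not tested.

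Marveld2 was detected in alveolar macrophage-like cells, at 37.8, 13.5, 41.9 and 23.3 CPM on 65, 29, 69 and 21 UMIs, with no more than 9 UMIs in any 1 cell. Both ventilated libraries lay below both nonventilated ones.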
